A study of Mus musculus with 7 samples.

Results

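The elastic fibre genes described here are 10 listed genes: Eln, Fbln1, Fbln2, Fbln5, Efemp1, Efemp2, Fbn1, Fbn2, Mfap5 and Emilin1. All 10 were found by symbol among the 54532 features of the deposited count table, and all 10 passed the filter on low counts, which kept 15441 features. They were measured by RNA sequencing in C3H10T1/2 cells, an established mouse mesenchymal line able to form several connective tissue lineages. Untreated cells gave the 3 control libraries, and the labels give no day of culture for them. The 4 OB libraries came from cells induced towards the osteoblast fate over 3 days, with ascorbic acid at 50 µM, β-glycerophosphate at 10 mM, the synthetic glucocorticoid dexamethasone and penicillin-streptomycin. Both groups share the base medium, MEM with serum, sodium pyruvate, L-glutamine and non-essential amino acids, and the design text calls the replicates biological. The cells are a single line, and the labels do not say how far the cultures were kept apart, so a p-value here reflects how these libraries varied.

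Elastic fibres give tissues such as artery, lung and skin their recoil. Cells secrete tropoelastin, the soluble product of Eln, which is laid down on a scaffold of fibrillin microfibrils and joined into an insoluble polymer by copper-dependent lysyl oxidases. The fibulins, Emilin1 and the microfibril-associated glycoprotein Mfap5 sit on or between these parts, and mesenchymal cells make many of them without making much elastin.

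Libraries held 21213328 to 46530017 counts on genes, so that 3 counts equal 0.0645 to 0.141 CPM (counts relative to a library total scaled by TMM). The columns of the table were tied to samples only through the order of inputs in the recorded counting command. The submitters' descriptions divide the libraries into label sets, with C1 on control 1 and OB 1 and C2 on control 2 and OB 2. Control 3, OB 3 and OB 4 carry no C number. What the sets stand for is not given in the labels. Control 3 stood apart from the other controls, with chi-square values per degree of freedom of 148 and 129 against control 1 and 2. Those 2 controls differed from each other by 33.6. In OB the values of OB 3 and OB 4 against OB 1 and OB 2 were 53.1 to 97.0. They were 31.8 between OB 1 and OB 2 and 13.6 between OB 3 and OB 4, so the OB libraries divided by C number too. Of 9 mesenchymal markers Vim stood at 5300 to 6349 CPM and Col1a1 at 4887 to 13711 CPM, but Thy1 at 11.3 to 46.6 CPM and Nt5e at 0.171 to 0.993 CPM, and Epcam (epithelial) and Adgre1 (macrophage) were at 0 counts in every library. Among 7 smooth muscle markers Acta2 stood at 545 to 1171 CPM, Smtn at 52.3 to 130 CPM and Lmod1 at 5.91 to 91.4 CPM. Tagln, Myh11, Cnn1 and Des were at most 1.85 CPM in every library. Of 6 osteoblast markers Sp7, Alpl, Bglap and Ibsp were too rare to test. Ibsp had 0, 1 and 1 counts across control 1 to 3 and 15, 2, 6 and 8 across OB 1 to 4, higher in OB without overlap. Sp7, Alpl and Bglap had at most 17, 5 and 5 counts in a library, and their groups overlapped in CPM. Runx2 stood at 66.5 to 112 CPM, with a log2 change of -0.34 that did not pass (edgeR adjusted p = 0.135). Dmp1 stood at 0.212 to 3.25 CPM and did not pass either (0.270). The OB label is used here for the medium, since neither osteoblast marker tested was called. Tsc22d3, a glucocorticoid receptor target used as a check of treatment, was 12.6-fold higher in OB (edgeR adjusted p = 0.000354).

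Fbln5 was the only member whose level passed the test. Fbln5 encodes fibulin-5, a small secreted glycoprotein that binds tropoelastin, the lysyl oxidase-like enzyme Loxl1 and integrins on the cell surface. It stood at 871, 779 and 863 CPM across control 1 to 3 and at 265, 326, 273 and 456 CPM across OB 1 to 4. Every OB library lay below every control library, and the control libraries lay close together. Mean levels were 838 ± 50.8 CPM (SD) over the 3 control and 330.0 ± 88.4 CPM (SD) over the 4 OB libraries, 2.54-fold lower. By edgeR's quasi-likelihood test this was a change of -1.34 ± 0.20 (SE) on the log2 scale, with adjusted p = 0.0110. The 95% interval of this change was -1.80 to -0.89. Of the 10 members 1 was called lower, beside 3.72% of all genes tested, and 0 were called higher, beside 4.32%. No further member reached an unadjusted p under 0.05 in edgeR, which 12.8% of all genes tested reached as higher and 12.4% as lower. DESeq2 (7.90% of its genes lower, 8.59% higher) called the same counts of members, 1 lower and 0 higher. So did limma-voom, here with quality weights on libraries (7.0% and 8.08%), and edgeR with the replicate number as a block (3.38% and 5.38%). With the label set as a block (8.13% and 9.28%) 1 was lower and 1, Mfap5, was higher. The median log2 fold change was -0.12 over the 10 members and -0.0040 over all genes tested. One called gene describes Fbln5 and says nothing about the 10 genes as a set. The Fbln5 call held in 16 of 16 alternative fits, with adjusted p from 5.77e-08 to 0.0371.

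Because Fbln5 is the gene that moved, the RefSeq promoter windows of its annotated starts (250 bases before to 50 after the start, build GRCm38.p6) are shown, with that of Fbn1, the steadiest member, for comparison. The Fbln5 windows lie at chr12:101819070-101819369 and chr12:101818435-101818734 on the minus strand, and the Fbn1 window at chr2:125506389-125506688, also on the minus strand. Capitals mark every match, on either strand, to the 5 motifs searched. These were the half-site of the glucocorticoid receptor, AGAACA, then the TATA box, spelt TATAAA, then a motif of Kruppel-like factors, CACCC, then the AP-1 motif, TGAGTCA, and the GC box of Sp1, spelt GGGCGG. No search motif lies inside another.
Fbln5 first start: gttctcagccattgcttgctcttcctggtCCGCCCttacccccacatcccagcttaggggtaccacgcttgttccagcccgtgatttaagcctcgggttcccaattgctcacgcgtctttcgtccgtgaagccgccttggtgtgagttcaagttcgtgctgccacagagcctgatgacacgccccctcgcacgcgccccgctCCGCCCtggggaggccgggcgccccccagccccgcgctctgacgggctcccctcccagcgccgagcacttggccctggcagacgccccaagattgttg
Fbln5 second start: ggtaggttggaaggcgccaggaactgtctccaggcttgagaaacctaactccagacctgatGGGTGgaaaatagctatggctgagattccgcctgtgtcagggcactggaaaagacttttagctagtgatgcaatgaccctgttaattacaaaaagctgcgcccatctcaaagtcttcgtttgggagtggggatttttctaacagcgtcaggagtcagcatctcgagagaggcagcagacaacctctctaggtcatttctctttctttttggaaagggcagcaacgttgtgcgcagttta
Fbn1 start: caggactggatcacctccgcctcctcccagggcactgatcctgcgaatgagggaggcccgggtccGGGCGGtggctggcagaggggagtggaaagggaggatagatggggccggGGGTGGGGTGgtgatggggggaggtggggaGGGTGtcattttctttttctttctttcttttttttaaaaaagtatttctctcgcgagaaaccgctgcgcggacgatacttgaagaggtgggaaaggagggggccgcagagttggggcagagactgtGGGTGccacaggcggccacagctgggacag
The first Fbln5 window held 2 GC boxes and no other motif, and the second held 1 Kruppel-like match. The Fbn1 window held 4 Kruppel-like matches and 1 GC box. The receptor half-site, the TATA box and the AP-1 motif were in none of these 3 windows. Over all 32851 promoter windows of the table, 35.7% held a GC box, 57.5% the Kruppel-like motif, 19.0% the receptor half-site, 13.6% a TATA box and 5.20% the AP-1 motif. Of the 10 members 7 had at least 1 window in the table, and the receptor half-site was found in a window of Fbln1 and in that of Emilin1. The part of any motif in the level of these genes was not tested.

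**Figure D1:**
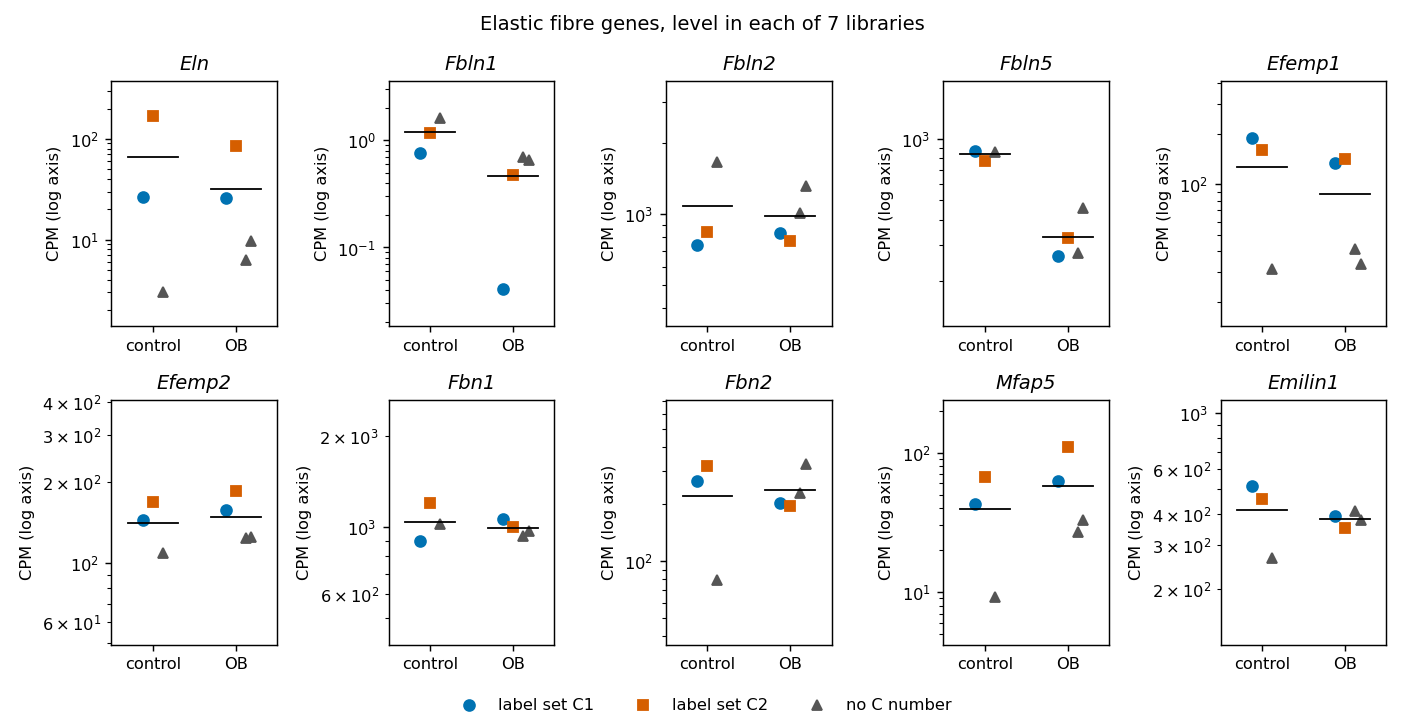
Level of each elastic fibre gene in every library, in CPM on a log axis whose range differs between panels. Points are libraries (circles C1, squares C2, triangles no C number) and lines are group means of 3 control and 4 OB libraries. For Fbln5 all OB points lie between 265 and 456 CPM, below the control points at 779 to 871 CPM, whereas for Eln, Efemp1 and Mfap5 the triangles lie below the other points of the same group.

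Eln, the gene of elastin itself, varied far more between libraries than between groups. It stood at 26.7, 170 and 3.06 CPM across control 1 to 3 and at 25.6, 84.8, 6.26 and 9.68 CPM across OB 1 to 4. The highest library was C2 in both groups, the libraries with no C number were the lowest in both, and the range of the OB libraries lay inside that of the controls. From the lowest to the highest library the level rose 55.8-fold, a range on the log2 CPM scale larger than or equal to that of 99.3% of genes tested. By edgeR the change of Eln was -1.07 ± 1.22 on the log2 scale, with a 95% interval of -3.88 to 1.74 (edgeR adjusted p = 0.630), an interval that covers both a several-fold fall and a rise. Within label sets the OB minus control difference in log2 CPM was -0.06 in C1, -1.01 in C2 and 1.33 among libraries with no C number. With the replicate number as a block the log2 fold change was -0.11 ± 0.37 (edgeR adjusted p = 0.874), and without control 2 it was 1.07 (0.646). Eln (ENSMUSG00000029675) lies at 134702593 to 134747323 on chromosome 5 of mm10, and 3.30% of its exon bases overlap other genes, mostly Gm30003 on the opposite strand.

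The fibrillins form the microfibril scaffold. Fbn1, the main fibrillin of postnatal tissues, was the steadiest member, at 897, 1198 and 1024 CPM across control 1 to 3 and at 1059, 997, 931 and 965 CPM across OB 1 to 4. The OB libraries lay inside the range of the controls. On the log2 scale Fbn1 changed by -0.07 ± 0.13 (edgeR adjusted p = 0.761), with a 95% interval of -0.36 to 0.22, and its range over libraries was at or above that of 13.6% of genes tested. Fbn2, a fibrillin prominent in development, stood at 264, 316 and 79.7 CPM across the controls and at 201, 196, 227 and 324 CPM in OB. Control 3 was the lowest library and OB 4 the highest. The log2 fold change of Fbn2 was 0.11 ± 0.42 (edgeR adjusted p = 0.902). Its direction depended on the libraries used, at -0.54 among C1 and C2 libraries, where it passed (edgeR adjusted p = 0.0467), and 1.77 among those with no C number, where it passed the other way (edgeR adjusted p = 8.9e-05). The latter fit holds a single control, assumed to vary like OB 3 and OB 4. Of the Fbn1 exon bases 20.1% overlap other genes, mostly Gm9913 on the opposite strand, and fragments that touched both were not counted, so the level of Fbn1 is understated.

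Mfap5 encodes a glycoprotein that binds fibrillins along the microfibril. It stood at 42.6, 66.9 and 9.25 CPM across control 1 to 3 and at 62.2, 109, 27.1 and 32.6 CPM across OB 1 to 4. OB was above control inside every label set, by 0.55 in C1, 0.71 in C2 and 1.68 among libraries with no C number on the log2 CPM scale, but the groups overlapped as a whole. By edgeR the log2 change of Mfap5 was 0.55 ± 0.68 (edgeR adjusted p = 0.661). It was 0.91 ± 0.21 with the replicate number as a block, which did not pass (edgeR adjusted p = 0.0582). With the label set as a block it was 1.01 ± 0.24, which did pass (edgeR adjusted p = 0.0348), while limma-voom with quality weights gave -0.19. Emilin1 encodes a glycoprotein found where elastin meets microfibrils. It stood at 516, 456 and 266 CPM across the controls and at 392, 351, 410 and 376 CPM in OB. Control 3 was again the lowest library, and OB libraries lay between it and the other controls. Its log2 fold change was -0.11 ± 0.21 (edgeR adjusted p = 0.786).

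**Figure D2:**
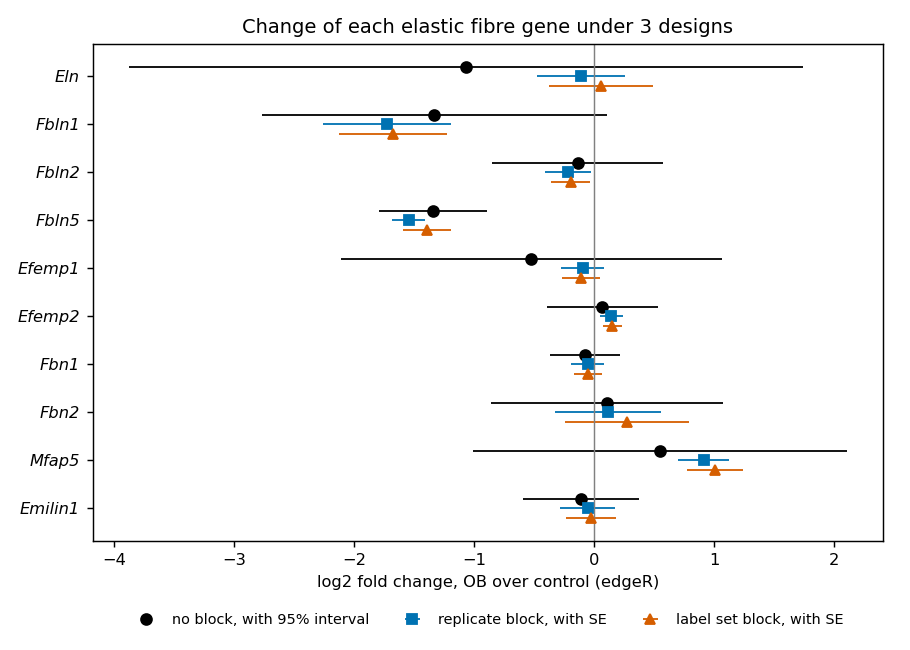
Log2 fold change of OB over control for each gene by edgeR, without a block (black, bars are 95% intervals), with the replicate number as a block (blue, bars are SE) and with the label set as a block (orange, bars are SE). With the replicate block the change rests on control 1 to 3 and OB 1 to 3, since OB 4 has no partner. Fbln5 lies at -1.34, -1.55 and -1.39 under these designs, Fbn1 lies near 0 under each, and Eln moves from -1.07 to -0.11 and 0.06.

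Fibulin-5 belongs to the short fibulins, whose other members here are Efemp1 (fibulin-3) and Efemp2 (fibulin-4, which brings lysyl oxidase to tropoelastin). Efemp2 stood at 145, 169 and 109 CPM across control 1 to 3 and at 157, 185, 123 and 125 CPM across OB 1 to 4. The groups overlapped, and each label set had a slightly higher OB level, by 0.12, 0.13 and 0.19 in log2 CPM for C1, C2 and no C number. The log2 fold change of Efemp2 was 0.07 ± 0.20 with a 95% interval of -0.39 to 0.53 (edgeR adjusted p = 0.867), an interval that does not reach the change of Fbln5. Efemp1 stood at 188, 160 and 31.5 CPM across the controls and at 134, 142, 41.2 and 33.6 CPM in OB. The 4 libraries of C1 and C2 lay at 134 to 188 CPM and the 3 libraries with no C number at 31.5 to 41.2 CPM, whichever the group. The log2 fold change of Efemp1 was -0.53 ± 0.69 (edgeR adjusted p = 0.681), and -0.09 ± 0.18 with the replicate block (0.777).

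The longer fibulins Fbln1 and Fbln2 stood at opposite ends of the scale. Fbln2, which binds fibrillin and basement membrane proteins, stood at 740, 842 and 1670 CPM across control 1 to 3 and at 837, 773, 1014 and 1318 CPM across OB 1 to 4. Control 3 was the highest library for this gene, while it was the lowest for Eln, Efemp1, Efemp2, Fbn2, Mfap5 and Emilin1. The log2 fold change of Fbln2 was -0.14 ± 0.31 (edgeR adjusted p = 0.820). Fbln1, which binds elastin and fibronectin, was nearly absent, with 36, 41 and 41 counts in the controls and 1, 20, 15 and 16 counts in OB. In CPM these were 0.766, 1.17 and 1.63 against 0.0407, 0.470, 0.695 and 0.662, so the groups did not overlap. Its log2 fold change of -1.33 ± 0.62 did not pass (edgeR adjusted p = 0.228), nor did it with the label set as a block (-1.67 ± 0.45, edgeR adjusted p = 0.0507). Fbln1 and Fbln5 were 2 of 10 members whose groups did not overlap, beside 25.5% of all genes tested.

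**Figure D3:**
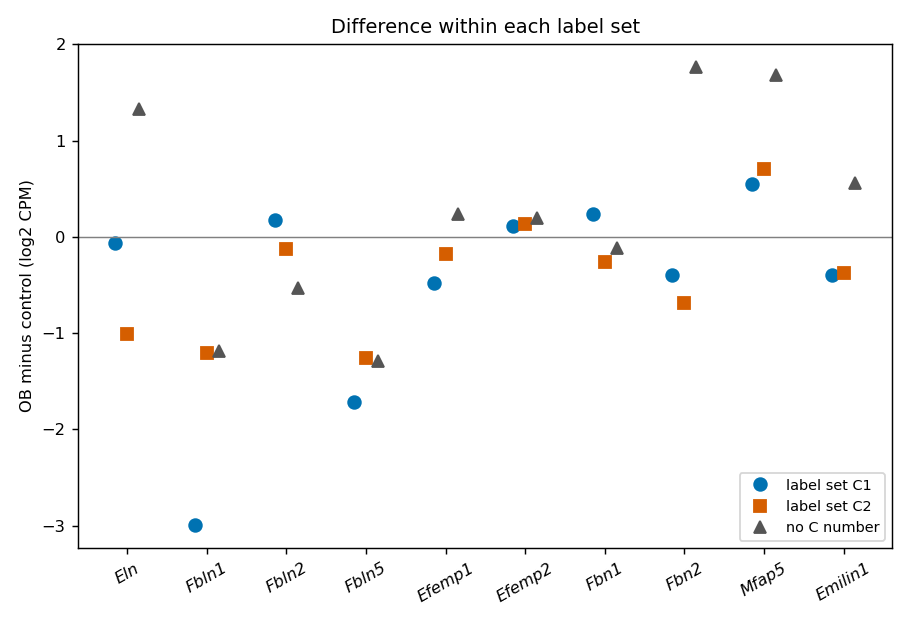
OB minus control in log2 CPM inside each label set, for each gene. C1 and C2 each compare 1 library with 1, and the set with no C number compares the mean of OB 3 and OB 4 with control 3, so no error can be given. Fbln5 is between -1.72 and -1.26 in the 3 sets, while Eln runs from -1.01 to 1.33 and Fbn2 from -0.69 to 1.77.

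Levels of different genes were compared as FPKM, the CPM per kilobase of exon. In the controls the order of mean levels was Fbln2 (170 ± 80.1 FPKM, SD, n = 3), Fbln5 (121 ± 7.35), Fbn1 (85.7 ± 12.4), Emilin1 (83.5 ± 26.4), Efemp1 (62.0 ± 40.9), Efemp2 (53.2 ± 11.5), Fbn2 (21.0 ± 11.9), Mfap5 (11.0 ± 8.06), Eln (8.24 ± 11.2) and Fbln1 (0.272 ± 0.0986). The library ranges of neighbours in this order overlapped, except between Fbln5 and Fbn1, between Efemp2 and Fbn2, and, by a narrow margin, between Eln and Fbln1. In OB the order was Fbln2 (155 ± 38.3 FPKM, SD, n = 4), Fbn1 (81.5 ± 4.49), Emilin1 (77.4 ± 5.03), Efemp2 (55.7 ± 11.2), Fbln5 (47.7 ± 12.8), Efemp1 (43.1 ± 28.6), Fbn2 (22.6 ± 5.66), Mfap5 (16.1 ± 10.5), Eln (3.90 ± 4.51) and Fbln1 (0.107 ± 0.0689). Fbln5 thus moved from place 2 to place 5, and its neighbours there, Efemp2 and Efemp1, had overlapping ranges with it. The FPKM of Fbln5 relative to that of Fbn1 was 1.14 to 1.70 in the controls and 0.438 to 0.83 in OB. Over only those exon bases that no other gene shares, a length chosen after seeing the data, these ratios were 0.912 to 1.36 and 0.350 to 0.662, so that Fbln5 was below Fbn1 in control 2. On that length Fbn1 stood at 92.6 to 124 FPKM in the controls and overlapped the range of Fbln5. Fbln5 made up 17.4% to 21.1% of the summed FPKM of the 10 genes in the controls and 7.64% to 12.4% in OB. Eln made up at most 3.25% in any library, so these cultures carried far more transcript for the scaffold and its fibulins than for elastin.

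**Figure D4:**
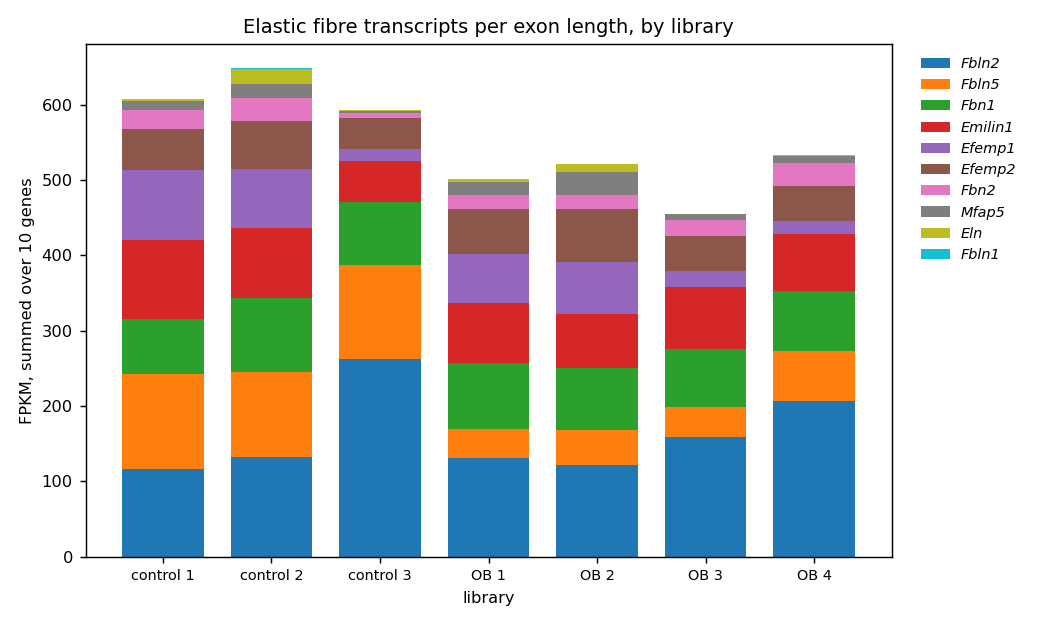
FPKM of the 10 elastic fibre genes stacked by library, with genes in the order of their mean level in control. The sum was 593 to 648 FPKM in the controls and 455 to 533 in OB, and the Fbln5 segment (orange) fell from between 113 and 126 to between 38.3 and 66.0 FPKM.

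Among genes of elastin cross-linking, the enzyme gene Lox and the copper pump gene Atp7a were higher in OB. Lox, the lysyl oxidase of elastin and collagen, stood at 2684, 2276 and 1998 CPM across control 1 to 3 and at 3991, 3075, 5616 and 5263 CPM across OB 1 to 4. Its log2 fold change was 0.95 ± 0.23 (edgeR adjusted p = 0.0435). The call of Lox ended with the replicate number as a block (0.83, edgeR adjusted p = 0.0915) and in 8 further alternatives, among them leaving out any library except OB 2 (up to 0.132). Atp7a, which encodes the pump that loads lysyl oxidases with copper, averaged 38.6 ± 6.91 CPM (SD, n = 3) without and 62.4 ± 6.62 CPM (SD, n = 4) with induction. Its log2 change was 0.69 ± 0.15 (edgeR adjusted p = 0.0330), and the call ended without control 2, OB 1, OB 2 or OB 4 (up to 0.0915). Of the 8 genes of this list, all tested, 2 were called higher and 0 lower by edgeR, beside 4.32% and 3.72% of all genes tested. The called counts by DESeq2 (8.59% and 7.90% of its genes) and by limma-voom (8.08% and 7.0%) were the same. At an unadjusted p under 0.05 edgeR had 3 higher and 1 lower, beside 12.8% and 12.4%. The median log2 fold change of the list was 0.25.

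Among 23 genes that bind or shape microfibrils 17 were tested. Of these 1 was higher and 0 were lower by edgeR, beside 4.32% and 3.72% of all genes tested. The higher gene was Adamtsl5, which encodes a secreted fibrillin-binding protein without protease activity. It stood at 19.3, 16.0 and 21.0 CPM across control 1 to 3 and at 64.0, 44.0, 48.8 and 41.9 CPM across OB 1 to 4, with every OB library above every control. Its log2 fold change was 1.40 ± 0.18 (edgeR adjusted p = 0.00755), and the call held in 16 of 16 alternatives. The genes of latent TGF-beta binding proteins Ltbp2 and Ltbp3, the highest of this list in mean log2 CPM over all libraries, averaged 684 ± 319 and 349 ± 27.1 CPM over the controls (SD, n = 3) and 493 ± 146 and 383 ± 35.4 CPM over OB (SD, n = 4), with edgeR adjusted p = 0.458 and 0.521. The median log2 fold change was 0.13. At an unadjusted p under 0.05 the list had 3 higher and 1 lower of 17, beside 12.8% and 12.4% of all genes tested. DESeq2 (8.59% and 7.90% of its genes) called 2 higher and 0 lower. With the replicate number as a block (5.38% and 3.38% of all genes tested) 1 was higher and 1 lower. The lower one was Adamts6 (-1.76, edgeR adjusted p = 0.0470), named after its values were seen.

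The elastin receptor complex, through which cells sense elastin fragments, is made of products of Glb1, Neu1 and Ctsa, which are lysosomal enzymes as well. All 3 were higher in OB. Neu1, the sialidase, stood at 26.6, 23.6 and 20.4 CPM across control 1 to 3 and at 62.5, 55.1, 40.2 and 39.9 CPM across OB 1 to 4. Its log2 fold change was 1.07 ± 0.19 (edgeR adjusted p = 0.0200). Ctsa, the protective protein cathepsin A, and Glb1, the beta-galactosidase gene whose splice variant is the elastin-binding subunit, changed by 0.74 ± 0.16 and 0.38 ± 0.09 on the log2 scale (edgeR adjusted p = 0.0299 and 0.0380). Gene counts do not separate that variant from the enzyme. Lgals3, which encodes a galactoside-binding lectin rather than a receptor, was lower, from 230 ± 17.0 to 151 ± 14.2 CPM, a log2 change of -0.61 ± 0.11 (edgeR adjusted p = 0.0214). The 10 integrin genes of the list did not pass. Over all 14 genes this left 3 higher, 1 lower and 10 not called, beside 4.32% higher and 3.72% lower of all genes tested. The median was 0.35. DESeq2 (8.59% higher and 7.90% lower of its genes) called 5 higher and limma-voom (8.08% and 7.0%) 4, each with 1 lower. With the replicate number as a block Itga4, an integrin gene, passed (2.38, edgeR adjusted p = 0.0287). These calls were not stable to leaving out a library, and 0 of 14 were called without control 2 or without OB 1. Calls over all genes, 667 higher and 574 lower, fell there too. They were 190 and 107 without control 2 and 225 and 104 without OB 1. The call of Glb1 ended without any 1 of the 7 libraries (edgeR adjusted p up to 0.144) and with the replicate block (0.0873). Of the Ctsa exon bases 17.4% overlap other genes, mostly Pltp on the opposite strand.

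No elastin-degrading enzyme passed in edgeR. Of the 13 genes listed 12 were found by symbol and 6 were tested, and these had positive log2 fold changes with a median of 0.40. Mmp14, the membrane-type metalloproteinase that activates Mmp2, averaged 532 ± 133 CPM over the controls (SD, n = 3) and 912 ± 169 CPM over OB (SD, n = 4), a log2 change of 0.78 ± 0.21 (edgeR adjusted p = 0.0641). With the replicate number as a block Mmp14 passed (0.88, edgeR adjusted p = 0.0185). Mmp2, a gelatinase that also cuts elastin, stood at 561 ± 215 and 851 ± 154 CPM (edgeR adjusted p = 0.233). Mmp2 passed with the label set as a block (0.78, edgeR adjusted p = 0.0246), among C1 and C2 libraries (0.0379) and among those with no C number (3.08e-05), but not with the replicate block (0.0582). At an unadjusted p under 0.05 edgeR had 2 higher and 0 lower of 6, beside 12.8% and 12.4% of all genes tested. DESeq2 (8.59% of its genes higher) called 1 higher, and so did limma-voom (8.08%). The elastases Mmp7 and Mmp12 had 0 counts in every library.

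Of 14 tested TGF-beta genes and regulators of elastin, 1 was higher and 0 were lower, beside 4.32% and 3.72% of all genes tested. The median log2 change was -0.27. The higher gene was Fgf2, a growth factor known to lower elastin transcription in other cells. It stood at 5.17, 7.77 and 3.81 CPM across control 1 to 3 and at 18.4, 19.4, 15.3 and 17.96 CPM across OB 1 to 4. Every OB library was above every control, a log2 change of 1.67 ± 0.25 (edgeR adjusted p = 0.0120), and this call held in 16 of 16 alternatives. Tgfbr2, the type II receptor of TGF-beta, stood at 280 ± 98.4 and 466 ± 154 CPM and passed only with a block or inside a label set (replicate block 0.89, edgeR adjusted p = 0.0135, against 0.209 without). Sp1, a factor that binds GC boxes, had edgeR adjusted p = 0.257. At an unadjusted p under 0.05 the list had 1 higher and 2 lower of 14, close to the 12.8% and 12.4% over all genes tested. DESeq2 (8.59% higher and 7.90% lower of its genes) called 1 higher and limma-voom (8.08% and 7.0%) 2, and neither called any lower. Nudt6 on the opposite strand takes most of the overlap of 13.2% of Fgf2 exon bases with other genes.

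**Figure D5:**
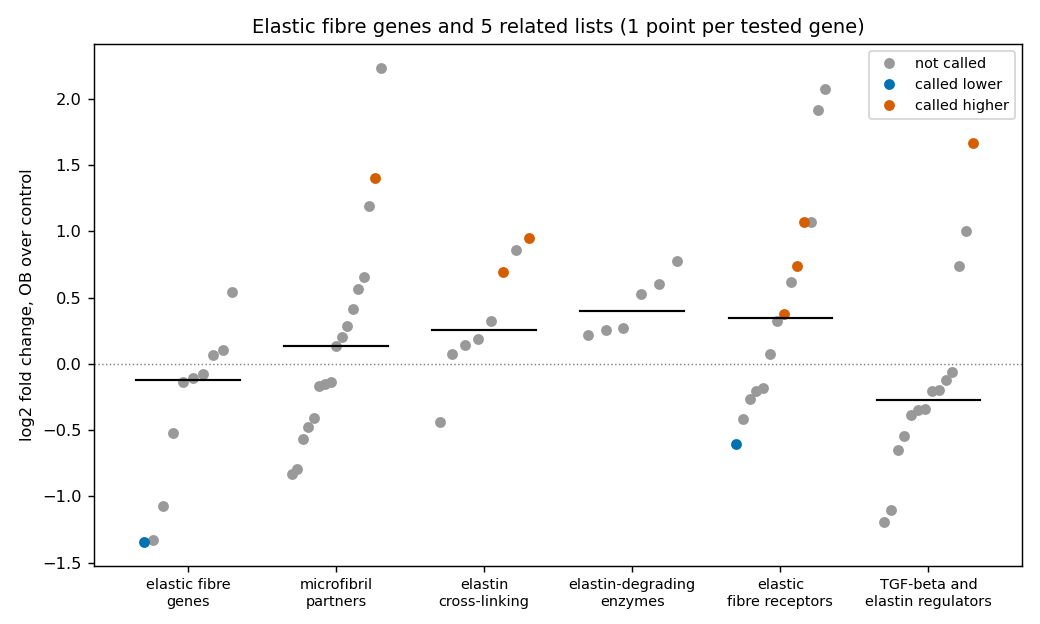
Log2 fold change of OB over control for each tested gene of the elastic fibre genes and 5 related lists, with genes sorted inside each list. Points are genes, black lines are medians, and colour marks calls at an edgeR adjusted p under 0.05. The median was -0.12 for the elastic fibre genes, 0.25 for cross-linking and 0.40 for the degrading enzymes, and Fbln5 at -1.34 is the only called elastic fibre gene.

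Other genes moved along with Fbln5. The 10 cell cycle markers listed were all called lower in OB, beside 3.72% of all genes tested. Their summed level was 867 to 2440 CPM in control and 377 to 555 CPM in OB. The count of lower calls fell from 10 to 4 without control 2, OB 1 or OB 2 and to 4 among C1 and C2 libraries. Over all genes lower calls fell from 574 to 107, 104 and 180 without control 2, OB 1 and OB 2 in turn. Among C1 and C2 libraries 560 of all genes were called lower. Fbln5 stood at 871 CPM in control 1, where the cell cycle sum was 867 CPM, and at 863 CPM in control 3, where it was 2440 CPM. The part of these markers in the Fbln5 result was not tested. Of 5 adipocyte markers only Fabp4 was tested, and it was called higher in OB, beside 4.32% of all genes tested. The log2 change of Fabp4 was 2.96 ± 0.25 (edgeR adjusted p = 0.00188). The summed adipocyte level was 4.56 to 7.55 CPM in control and 33.0 to 61.1 CPM in OB. Adipoq had 96 counts in OB 2 and at most 8 in any other library. The part of adipocyte markers in the Fbln5 result was not tested either. Of 7 smooth muscle markers 1 was called higher, Lmod1 (edgeR adjusted p = 0.0492), beside 4.32% of all genes tested. The count of higher calls fell to 0 without any single library other than control 3. Higher calls over all genes, 667 with all libraries, were 190 to 480 in those fits. DESeq2 (8.59% higher and 7.90% lower of its genes) and limma-voom (8.08% and 7.0%) each called 2 higher and 1 lower. The summed smooth muscle level was 967 to 1112 CPM in control and 739 to 1346 CPM in OB. Of 9 mesenchymal markers 1, Pdgfra, was called higher and 0 lower, beside 4.32% and 3.72% of all genes tested. The higher count fell to 0 without control 2 or OB 1, where 190 and 225 of all genes were called higher. The summed mesenchymal level was 25768 to 32479 CPM in control and 19069 to 28320 CPM in OB. None of the 4 chondrocyte markers tested and neither of the osteoblast markers tested was called by edgeR. At an unadjusted p under 0.05, 1 of each list was lower, beside 12.4% of all genes tested. DESeq2 and edgeR with either block called 1 chondrocyte marker lower and limma-voom 0, and all of these called 0 osteoblast markers. Of all genes tested these fits called 3.38% to 8.13% lower. The summed chondrocyte level was 531 to 880 CPM in control and 470 to 839 CPM in OB. Sox9 stood at 123 to 613 CPM and Col2a1 at 171 to 422 CPM, while Acan, Col9a1, Matn1 and Comp were at most 8.07 CPM. The summed osteoblast level was 89.3 to 113 CPM in control and 67.0 to 81.8 CPM in OB. The summed level was at most 9.43 CPM for 4 endothelial, 3.56 CPM for 5 epithelial and 3.52 CPM for 4 macrophage markers in any library. In bulk RNA fewer cells that express Fbln5 and less Fbln5 RNA per cell cannot be told apart. Fbln5 (ENSMUSG00000021186) lies at 101746565 to 101819055 on chromosome 12 of mm10, on the minus strand, with 0% of its 6911 exon bases shared with other genes and 0% of its 50-base words found in another gene.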

How the data were processed

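RNA sequencing libraries were made from total RNA with a TruSeq v2 kit, per the labels' protocols, a kit that does not mark strand. Trimming with Trimmomatic, alignment with HISAT2 and the mm10 build are listed in the submitters' processing notes, without versions. Per the file headers the deposited values are whole fragment counts from featureCounts 1.6.4 over exons of Ensembl 94, without strand, multi-mapping or overlap options, so fragments in overlapping genes were not counted. The deposited exon length, another value per the file headers, served for FPKM. Every number beyond these was computed from them. Of 54532 features 123 had no symbol in the table used.

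The counts were fitted in R 4.3.3 with edgeR 4.0.16 (filterByExpr, TMM, quasi-likelihood test, Benjamini-Hochberg over 15441 genes, threshold 0.05), which was checked on simulated data. The SE is the absolute log2 fold change divided by the square root of F, and log2 CPM used a prior count of 2. Alternatives were DESeq2 1.42.0 and its size factors, upper-quartile factors, limma-voom 3.58.1 with quality weights, no filter, blocks, label sets and leaving out each library. Quality weights give each library its own weight, so the limma-voom fit differs from edgeR in more than the test. Replicate numbers were taken to pair libraries because deviations from group means correlated at 0.17, 0.52 and 0.40 for numbers 1, 2 and 3. The correlation for number 1 was weak, and the pairing was read from these same data. Numbers 1, 2 and 3 pair the same libraries as the label sets do, and only OB 4 is placed differently. The replicate block and the label set block are therefore not independent alternatives. By replicate number OB 4 has no partner, so with the replicate block the group change rests on control 1 to 3 and OB 1 to 3. All members were named. Of each other list up to 4 called genes were named in order of p, or the 2 most abundant were added where fewer than 2 passed. The members and lists were chosen with earlier results of these data known. The lists covered microfibril partners, cross-linking, degradation, receptors, regulators and markers of 8 cell types and of the cell cycle. The dexamethasone dose, which the labels write ambiguously, is left out. Promoters came from RefSeq (GRCm38.p6).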

Additional observations from a re-analysis of the deposited data

How the results depend on the processing

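Across 16 alternative fits the Fbln5 log2 fold change kept its direction and its call, from -1.55 to -1.26, and leaving out single libraries gave -1.54 to -1.26. Counts of all genes called higher and lower, 667 and 574, became 1326 and 1219 by DESeq2, 1247 and 1081 by limma-voom, 1433 and 1256 with the label set block, 1030 higher among C1 and C2 libraries, and 3052 and 3413 among libraries with no C number (1 control), and leaving out 1 library gave 190 to 575 higher and 104 to 703 lower. Members called, 0 higher and 1 lower, became 1 higher with the label set block, 2 lower among C1 and C2 libraries, and 4 higher and 2 lower among libraries with no C number, and stayed at 0 and 1 whichever library was left out. Genes of the 5 related lists called, 7 higher and 1 lower of 59 tested, became 11 higher by DESeq2, 13 higher and 3 lower with the label set block, 13 and 2 among C1 and C2 libraries, 23 and 13 among libraries with no C number, and 2 lower with the replicate block, and ranged from 2 to 6 higher and 0 to 2 lower without 1 library. The replicate block ended the calls of Lox and Glb1, added those of Mmp14, Tgfbr2, Itga4 (2.38, edgeR adjusted p = 0.0287) and Adamts6, and changed no other call of the members or related lists. Beside the members called lower among C1 and C2 libraries, 560 of all genes were called lower there. Beside the counts of the related lists, edgeR called 4.32% of all genes tested higher and 3.72% lower. DESeq2 called 8.59% and 7.90% of its genes. The label set block gave 9.28% and 8.13%, and the replicate block 5.38% and 3.38%. The fit of libraries with no C number rests on 1 control and called far more of all genes than the fit of all libraries. Its counts therefore do not set the members or the related lists apart from other genes.

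Members that did not pass in the fit of all libraries without a block, other than Fbln1, changed sign in some alternatives. Eln was 0.060 with the label set block, 1.37 among libraries with no C number and -2.27 to 1.07 without 1 library. Among libraries with no C number Efemp1 was 0.23, Emilin1 0.55 and Ltbp2 0.23. By limma-voom, which here weighted libraries by quality, Fbln2 was 0.28, Efemp2 -0.16, Fbn2 -0.18 and Mfap5 -0.19. Among C1 and C2 libraries Fbln2 was 0.0285 and Fbn2 -0.54. Without 1 library Fbln2 was -0.36 to 0.31, Efemp2 -0.096 to 0.21, Fbn1 -0.18 to 0.028, Fbn2 -0.30 to 0.45 and Emilin1 -0.35 to 0.073. The cause of these shifts was not tested. Ratios of levels by TPM, and differences with a prior count of 0.5, moved by less than the spread between libraries. Over unshared exon bases, an alternative chosen after seeing the data, the mean ratio of Fbln5 to Fbn1 level in control moved from 1.44 to 1.15, through the shorter Fbn1 length. Depth limits Fbln1, with at most 41 counts in a library.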

Other observations

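Fbln7, a fibulin gene outside the 10 and named after its values were seen, ran in the same order of libraries as Eln inside each group, but not across groups. It stood at 4.96, 13.7 and 0.278 CPM across control 1 to 3 and at 5.94, 19.0, 1.71 and 2.28 CPM across OB 1 to 4, a 68.5-fold range, and its log2 change was 0.20 ± 1.12 (edgeR adjusted p = 0.932). Igf1, a growth factor gene that can raise elastin in other cells, stood at 108, 176 and 7.62 CPM across the controls and at 116, 69.2, 56.5 and 57.1 CPM in OB (edgeR adjusted p = 0.799), and control 3 was again the lowest library. The small microfibril proteins Mfap2 and Mfap4, common partners of elastin in artery and lung, were at most 1.46 and 0.852 CPM in any library.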
